A study of Mus musculus with 9 samples.

Results

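The interleukin-1, inflammasome and Tnf genes described here are 10 genes taken by their symbols from a table of 18571 genes. They are the cytokines Il1a, Il1b, Il18 and Tnf, the interleukin-1 antagonists Il1rn and Il1r2, and the inflammasome genes Nlrp3, Pycard, Casp1 and Gsdmd. All 10 symbols were found, and all 10 passed the filter on low counts that left 14696 genes to test. RNA was sequenced from cells that a CD45 antibody held on a panning plate, isolated from the cortex and hippocampus of mice at 9 months of age and labelled as microglia, the resident macrophages of the brain. The study compared wild type mice (WT), APP/PS1 mice, which carry human transgenes of familial Alzheimer's disease and form amyloid deposits, and APP/PS1 mice that also carried the alleles Cx3cr1-CreER and Cx43-flox/flox. The last group is called cKO here. It was made to ask what the loss of connexin 43 (Cx43, a gap junction and hemichannel protein encoded by Gja1) in microglia changes in an amyloid model. CreER is a recombinase that works only after tamoxifen, and here it is expressed from Cx3cr1, a gene that is active in microglia and also in other macrophages and in monocytes. Per the labels, mice of all 3 groups received tamoxifen by mouth at 8 months of age, 0.1 mg/g for 5 days. Each group had 3 libraries. The labels do not say whether a library is a single mouse or a pool, so p-values measure only the spread between these libraries, which may be technical.

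The libraries held 18907681 to 19565354 estimated counts. Gja1, the gene targeted in cKO, had 31.63 to 35.07 CPM (counts scaled to a common library size with TMM factors) in the WT libraries, 37.03 to 42.46 CPM in APP/PS1 and 25.31 to 28.09 CPM in cKO. Its log2 change between cKO and APP/PS1 was -0.56 (SE 0.0596, edgeR adjusted p 7.95e-09), and every cKO library still held counts of it. Gja1 is also known as a connexin gene of astrocytes, and 9 of 10 astrocyte markers were called lower in the same comparison, beside 27.7% of all tested genes. Gjb6 was at -0.92, Aldh1l1 at -0.60 and Aldoc at -0.49 on the log2 scale, while Gfap was at 0.0759 and did not pass (edgeR adjusted p 0.208). The mean sum of these markers was 461.1, 673 and 515.2 CPM in WT, APP/PS1 and cKO, and the part of astrocyte RNA in the level of Gja1 was not tested. The libraries labelled cKO also differed from the others in Cx3cr1, at 1214 CPM against 2231 CPM in APP/PS1, and in the Y-linked gene Ddx3y, with 0, 1 and 2 counts against at least 4137 in the libraries of the other groups. Loss of Cx43, the CreER allele, the lower Cx3cr1 and sex-linked expression therefore cannot be told apart in any comparison with cKO. The 12 microglia markers summed to 22049 to 22320 CPM per library of WT, 26709 to 27152 of APP/PS1 and 24224 to 24594 of cKO, without overlap and in the same order of groups as Il1b and Pycard. Of them 7 were called higher and 3 lower in APP/PS1 than in WT, beside 26.9% and 32% of all tested genes, and none was at 0 in any group. The log2 changes ran from -0.48 for Csf1r, -0.31 for Tmem119 and -0.17 for Sall1 to 3.02 for Fcrls. Markers of neutrophils were present beside them, and their summed level over 14 genes was 3875 to 3937 CPM in the WT libraries, 1477 to 1547 CPM in APP/PS1 and 10199.8 to 10324 CPM in cKO.

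Interleukin-1 alpha and beta are ligands of the same receptor and start inflammatory signalling through the adaptor MyD88. Interleukin-1 alpha is active as made, whereas interleukin-1 beta and interleukin-18 are made as inactive precursors. A sensor such as NLRP3 assembles with the adaptor ASC (encoded by Pycard) and caspase-1 into an inflammasome, which cleaves both precursors and also gasdermin D, whose fragments form pores in the membrane. The receptor antagonist encoded by Il1rn and the decoy receptor encoded by Il1r2 hold interleukin-1 signalling back. Tumor necrosis factor acts through receptors of its own. In the brain, microglia are a main source of interleukin-1 and tumor necrosis factor, while neutrophils are known for high Il1r2 and Il1rn.

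The 10 genes covered a wide range of levels. Per transcript length (TPM), Il1a was the highest of them in every group, at 6332 TPM ± 136 in the WT libraries, 5260.1 TPM ± 139 in APP/PS1 and 4481 TPM ± 113 in cKO (SD, n = 3), which put it at rank 8, 14 and 16 of the whole table. Tnf followed in WT (3312 TPM ± 52.4) and in cKO (2351 TPM ± 91.5). In APP/PS1 the second place was taken by Il1b, at 2741 TPM ± 39.7 against 1965 TPM ± 51.9 for Tnf (SD, n = 3). Nlrp3 came next in all 3 groups, at 396.8 TPM to 532.6 TPM on average. The remaining 6 genes lay between 14.6 and 131.3 TPM, and their order differed by group. Il1rn was the lowest in WT (15.15 TPM ± 1.79) and in APP/PS1 (14.6 TPM ± 0.601), and stood at the seventh place in cKO (68.5 TPM ± 1.92), where Il18 was the lowest (40.5 TPM ± 3.33). Of the neighbours in this order, only Pycard and Il18 in APP/PS1 and Casp1 and Pycard in cKO had overlapping ranges.

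The promoter windows of these genes are shown for the 3 cytokines with the highest levels per length, and for Il1rn and Nlrp3 because each holds a match to a site of an inflammatory transcription factor. The RefSeq promoter table used here (GRCm38.p6) was matched for 9 of the 10 genes (the first of 3 is shown for Il1rn and the second for Nlrp3), and the 200 bases before each start were searched on both strands for a TATA box (TATAAA), an AP-1 site (TGANTCA), a C/EBP site (TTNNGNAA) and a kB site, the binding site of NF-kB. The capitals mark the matches, and each sequence reads 5′ to 3′ towards the start site:
Il1a, chr2:129309973-129310172, minus strand: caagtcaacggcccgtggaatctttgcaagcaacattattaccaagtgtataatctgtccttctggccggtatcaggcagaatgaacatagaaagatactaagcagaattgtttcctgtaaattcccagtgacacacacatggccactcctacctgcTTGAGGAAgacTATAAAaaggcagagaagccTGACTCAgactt
Il1b, chr2:129371140-129371339, minus strand: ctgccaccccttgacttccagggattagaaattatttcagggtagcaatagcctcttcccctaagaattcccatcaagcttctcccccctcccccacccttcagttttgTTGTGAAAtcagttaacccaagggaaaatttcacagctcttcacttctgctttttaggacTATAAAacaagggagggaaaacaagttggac
Tnf, chr17:35202008-35202207, minus strand: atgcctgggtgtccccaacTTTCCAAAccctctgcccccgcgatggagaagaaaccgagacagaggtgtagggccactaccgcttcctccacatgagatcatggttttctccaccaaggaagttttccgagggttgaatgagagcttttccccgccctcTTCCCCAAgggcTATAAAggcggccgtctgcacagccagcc
Il1rn, chr2:24336660-24336859, plus strand: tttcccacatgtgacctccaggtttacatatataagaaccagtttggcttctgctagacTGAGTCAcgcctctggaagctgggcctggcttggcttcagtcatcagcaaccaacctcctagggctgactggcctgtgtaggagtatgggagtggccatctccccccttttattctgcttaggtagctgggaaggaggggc
Nlrp3, chr11:59541369-59541568, plus strand: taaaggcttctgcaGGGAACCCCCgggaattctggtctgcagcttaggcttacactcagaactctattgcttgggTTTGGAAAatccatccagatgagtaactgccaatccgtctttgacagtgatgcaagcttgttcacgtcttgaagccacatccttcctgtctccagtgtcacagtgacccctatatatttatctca

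Il1a, Il1b and Tnf each held TATAAA on the strand of the gene, at -32 to -27, -31 to -26 and -29 to -24 from the start site. Of 32851 promoter windows of the same length in RefSeq, 9.96% held this motif. Il18 held it on the other strand, at -175 to -170. An AP-1 match lay in the Il1a window at -12 to -6 and in the Il1rn window shown at -141 to -135, against 5.48% of all windows. The Nlrp3 window shown held the kB match at -186 to -177, against 3.18% of all windows. C/EBP matches, found in 30.0% of all windows, lay in windows of Il1a, Il1b, Il1rn, Nlrp3, Pycard and Tnf. The windows of Il1r2 and Casp1 held none of the 4 motifs. These matches describe the letters only. On GRCm38.p6, Il1a (129299609 to 129310186), Il1b (129364569 to 129371164) and Il1rn (24336860 to 24351491) lie on chromosome 2, Il1r2 on chromosome 1 (40084692 to 40125230), and Casp1 on chromosome 9 (5298517 to 5307281). Nlrp3 lies on chromosome 11 (59541569 to 59566955), Pycard on 7 (127991373 to 127993867), Gsdmd on 15 (75862144 to 75867408) and Tnf on 17 (35199367 to 35202007). Il1a, Il1b and Il1r2 overlap long non-coding RNAs on the other strand (Gm14023, Il1bos and Gm16894) that have no row of their own here.

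Comparing APP/PS1 with WT asked what differs in the amyloid model. Il1b, Pycard, Casp1, Il18, Il1rn and Il1a were higher in APP/PS1, while Il1r2, Tnf and Gsdmd were lower and Nlrp3 did not pass the test. The directions of Il18, Il1rn and Il1a in this comparison depended on the scaling or on corrections for length, as given with each gene. In all, 6 genes were higher and 3 lower at an edgeR adjusted p under 0.05, in a comparison where 26.9% of the 14696 tested genes were called higher and 32% lower. Il1b, Pycard and Il1r2 changed at least 2-fold (8.55% of tested genes), and the groups did not overlap in CPM for any of the 10 genes (63.5% of tested genes). On TPM 3 were higher and 5 lower, and with offsets for GC content and length 5 were higher and 5 lower. The median log2 change of the 10 genes was 0.23, beside -0.0359 over all tested genes.

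Between cKO and APP/PS1, the comparison that addresses the loss of Cx43, Il1r2, Il1rn and Nlrp3 were higher and Il18, Casp1, Il1b, Pycard and Il1a were lower. These 3 and 5 genes stand beside 27.3% of tested genes called higher and 27.7% called lower. Il1r2 and Il1rn changed at least 2-fold (7.65% of tested genes), and the groups did not overlap for 8 of the 10 genes (59.7%). On TPM 5 were higher and 5 lower. The median of the 10 genes was -0.23, beside -0.0115 over all. Compared with WT, cKO libraries differed as follows. Il1rn, Pycard, Il1b and Il1r2 were higher in cKO and Gsdmd, Il18, Il1a and Tnf lower, 4 genes each way, where 24.7% of tested genes were called higher and 23% lower. TPM gave 4 higher and 6 lower. Only Il1rn changed at least 2-fold in that comparison (5.19% of tested genes), and 9 of the 10 genes did not overlap (54.6%). The 3 comparisons share their groups by pairs, so a gene that is high or low in a shared group enters both comparisons that use it. Because whole cell preparations were sequenced, fewer cells of a type and less RNA per cell cannot be told apart in any of these changes.

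**Figure D1:**
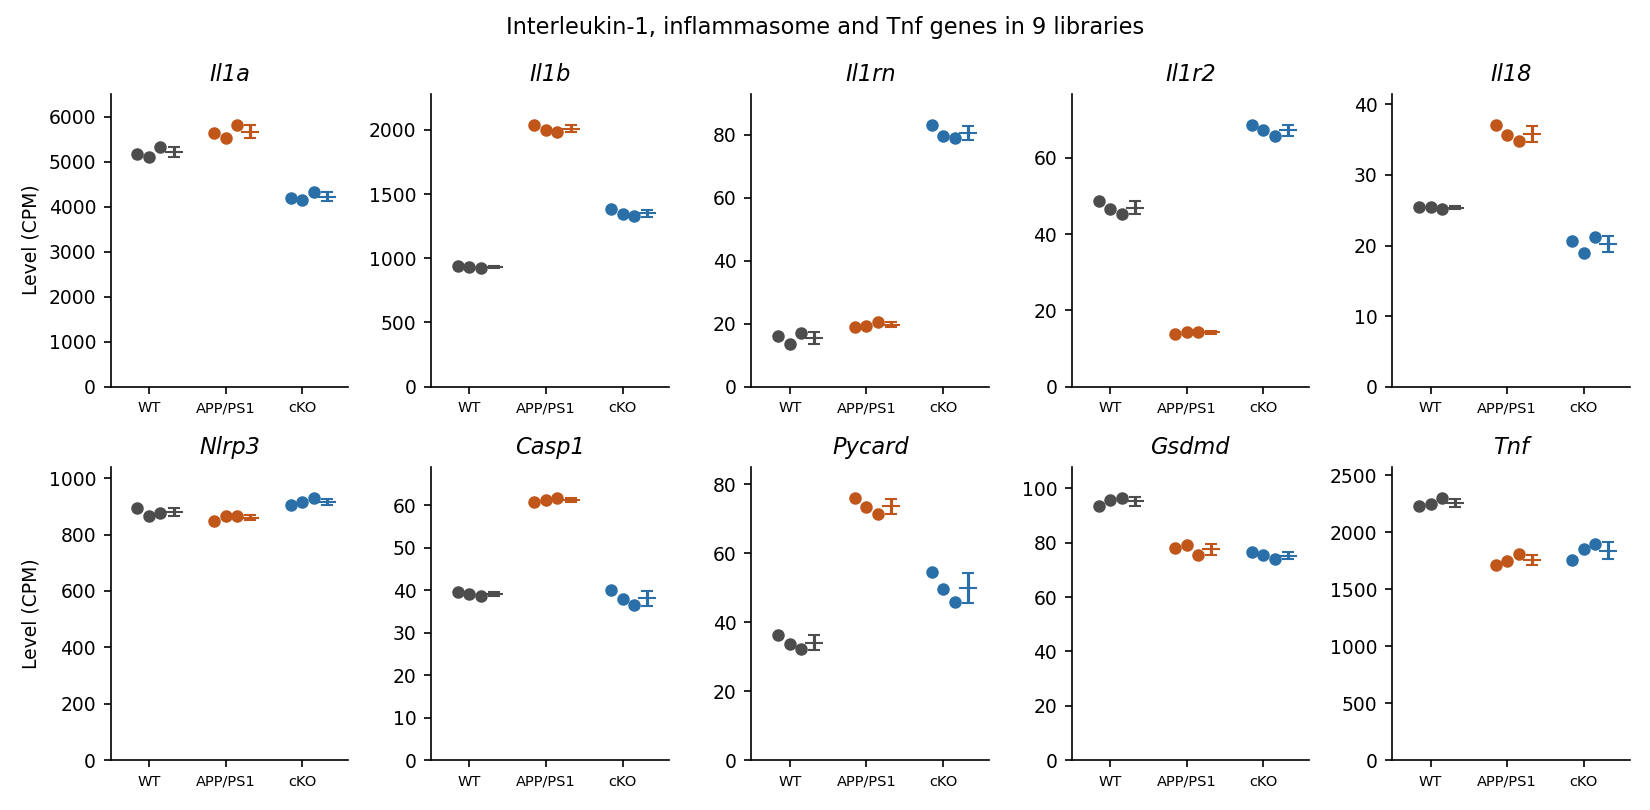
Level of each of the 10 genes in CPM on an axis from 0, in WT, APP/PS1 and cKO. Points are the 3 libraries of a group, and the bar beside them is their mean with its SD. Il1rn stands out in cKO (79.05 to 83.07 CPM) and Il1r2 is low in APP/PS1 (13.87 to 14.44 CPM), while Nlrp3 stays between 849.7 and 928.1 CPM in all libraries.

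Among the agonist cytokines, Il1b differed most between WT and APP/PS1. Its level was 943.3, 928.4 and 925.8 CPM in the WT libraries, 2038, 2000.1 and 1983 CPM in APP/PS1 and 1380.3, 1345 and 1328 CPM in cKO. Every APP/PS1 library was above every cKO library, and every cKO library above every WT library. APP/PS1 had 2.15-fold more Il1b than WT (log2 change 1.11, SE 0.0259, edgeR adjusted p 1.02e-22). It was lower in cKO than in APP/PS1 with a log2 change of -0.57 (SE 0.0256, edgeR adjusted p 1.75e-16) and still 1.45-fold higher than in WT (0.53, SE 0.0257, edgeR adjusted p 1.22e-15). Per 1000 CPM of the summed microglia markers, Il1b was at 41.99 ± 0.354 in the WT libraries, 74.6 ± 1.37 in APP/PS1 and 55.4 ± 1.28 in cKO (SD, n = 3), which kept the same order without overlap. The part of the microglia share in the changes of Il1b and Pycard was not tested. Across 13 other processing choices the log2 change of Il1b in APP/PS1 against WT was 0.72 to 1.14. It was under 2-fold with some of them, among these library totals (0.97), the offsets for GC content and length (0.84) and TPM (0.72).

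Il1a, the more abundant agonist, moved less. It was at 5180.3, 5112 and 5326 CPM in the WT libraries, 5645, 5529 and 5817 CPM in APP/PS1 and 4184, 4139 and 4333 CPM in cKO. cKO libraries were thus the lowest in CPM, without overlap with either other group. Relative to the early-response genes, given with Tnf below, the WT and cKO libraries overlapped. The log2 change was -0.42 against APP/PS1 (SE 0.0264, edgeR adjusted p 2.02e-13) and -0.30 against WT (SE 0.0264, edgeR adjusted p 2.8e-10). With the offsets the first of these was -0.20, and on TPM they were -0.23 and -0.50. The rise of Il1a in APP/PS1 over WT was 1.09-fold (log2 change 0.12, SE 0.0263, edgeR adjusted p 0.000286), and its direction depended on the scaling. It was -0.0161 with library totals (edgeR adjusted p 0.602), -0.1 with offsets for GC content and transcript length (edgeR adjusted p 0.0143) and, using TPM, -0.27 (limma adjusted p 3.64e-06).

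Il18 encodes an agonist that is stored as a precursor and signals through its own receptor. It was at 25.46, 25.47 and 25.17 CPM in the WT libraries, 37.09, 35.63 and 34.75 CPM in APP/PS1 and 20.61, 18.99 and 21.21 CPM in cKO, again with no overlap between groups. Il18 was 1.77-fold lower in cKO than in APP/PS1 (log2 change -0.82, SE 0.0564, edgeR adjusted p 1.67e-12) and also lower than in WT (-0.32, SE 0.0589, edgeR adjusted p 5.07e-05). In APP/PS1 it was 1.41-fold higher than in WT (0.50, SE 0.0537, edgeR adjusted p 9.73e-09). That rise became a decrease of -0.17 with offsets for GC content and length (edgeR adjusted p 0.00496) and did not pass on TPM (0.1, limma adjusted p 0.102). The longest GENCODE transcript of Il18 has 885 nt, and in the tenth of genes with the shortest transcripts (median 1008 nt) the median log2 change of APP/PS1 against WT was 0.522, beside -0.0934 in the tenth with the longest (median 8348.5 nt). Between cKO and APP/PS1 these medians were -0.47 and 0.0164, and with the offsets the decrease of Il18 was -0.30. Il18 lies on chromosome 9 at 50554700 to 50581841 (GRCm38.p6) and overlaps Bco2 and Tex12 on the other strand. Whether reads were counted by strand is not given in the sources used here. Tex12 had at most 2 counts in any library, and Bco2 was at 52.7 CPM ± 2.12 in the WT libraries, 51.4 CPM ± 1.64 in APP/PS1 and 45 CPM ± 1.17 in cKO (SD, n = 3).

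Between cKO and APP/PS1 the antagonists differed by more than the agonists. Il1rn, which encodes the receptor antagonist that binds the interleukin-1 receptor without signalling, had 320, 274 and 347 counts in the WT libraries, 348, 360 and 381 in APP/PS1 and 1568, 1522 and 1517 in cKO. In CPM this was 13.50 to 16.99 in the WT libraries, 19.01 to 20.53 in APP/PS1 and 79.05 to 83.07 in cKO. The WT and APP/PS1 libraries lay close together without overlap, and the cKO libraries stood far above both. Il1rn was 4.1-fold higher in cKO than in APP/PS1 (log2 change 2.04, SE 0.0576, edgeR adjusted p 6.25e-21) and 5.2-fold higher than in WT (2.38, SE 0.0589, edgeR adjusted p 5.55e-22). Its change between APP/PS1 and WT was 1.27-fold (0.34, SE 0.0735, edgeR adjusted p 0.000257), and on TPM it was -0.0443 (limma adjusted p 0.584).

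Il1r2, the decoy receptor that captures interleukin-1 without passing on a signal, had 974, 948 and 925 counts in the WT libraries, 254, 266 and 268 in APP/PS1 and 1295, 1286 and 1259 in cKO. The order of the groups in CPM was APP/PS1 (13.87 to 14.44), WT (45.30 to 48.63) and cKO (65.60 to 68.61), without overlap. Il1r2 was 3.3-fold lower in APP/PS1 than in WT (log2 change -1.72, SE 0.056, edgeR adjusted p 1.31e-19). In cKO it was 4.72-fold higher than in APP/PS1 (2.24, SE 0.0537, edgeR adjusted p 1.73e-22) and 1.43-fold higher than in WT (0.52, SE 0.0434, edgeR adjusted p 1.35e-10).

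Markers of other blood cells differed between the same groups. All 14 neutrophil markers, among them S100a8, S100a9, Ly6g and Cxcr2, were called lower in APP/PS1 than in WT and all 14 were called higher in cKO than in APP/PS1, while 11 were higher and 2 lower in cKO than in WT. The 8 monocyte markers were all lower and all higher in the first and second of these comparisons and 6 higher and 1 lower in the third, with sums of 612 to 639.7 CPM in the WT libraries, 217.9 to 240.4 CPM in APP/PS1 and 933.1 to 949.6 CPM in cKO. Of all tested genes, 32% were lower in the first comparison, 27.3% higher in the second, and 24.7% higher and 23% lower in the third. No marker of either list was at 0 in any group. Per 1000 CPM of summed neutrophil markers, Il1r2 was at 11.99 ± 0.523 in the WT libraries, 9.39 ± 0.0562 in APP/PS1 and 6.55 ± 0.126 in cKO (SD, n = 3), so on that scale the cKO libraries were the lowest. On the same scale Il1rn was at 3.96 ± 0.457 in the WT libraries, 12.98 ± 0.261 in APP/PS1 and 7.86 ± 0.169 in cKO (SD, n = 3). Of these markers Csf3r changed least, with log2 changes of -0.34 and 0.37 in the first and second comparisons. It held 541.5 CPM of the mean APP/PS1 sum of 1512.9 CPM. No ratio was computed without Csf3r, so the difference of Il1r2 between WT and APP/PS1 on this scale may rest on it. In CPM, Il1r2 followed the order of the neutrophil sum (APP/PS1, WT, cKO) and Il1rn did not, since its lowest libraries were those of WT. On TPM the ranges of Il1rn in WT (13.14 to 16.58) and APP/PS1 (14.11 to 15.27) overlapped. Its mean TPM was lowest in APP/PS1, which is the order of the neutrophil sum. The part of neutrophils and monocytes in the changes of Il1r2 and Il1rn was not tested.

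**Figure D2:**
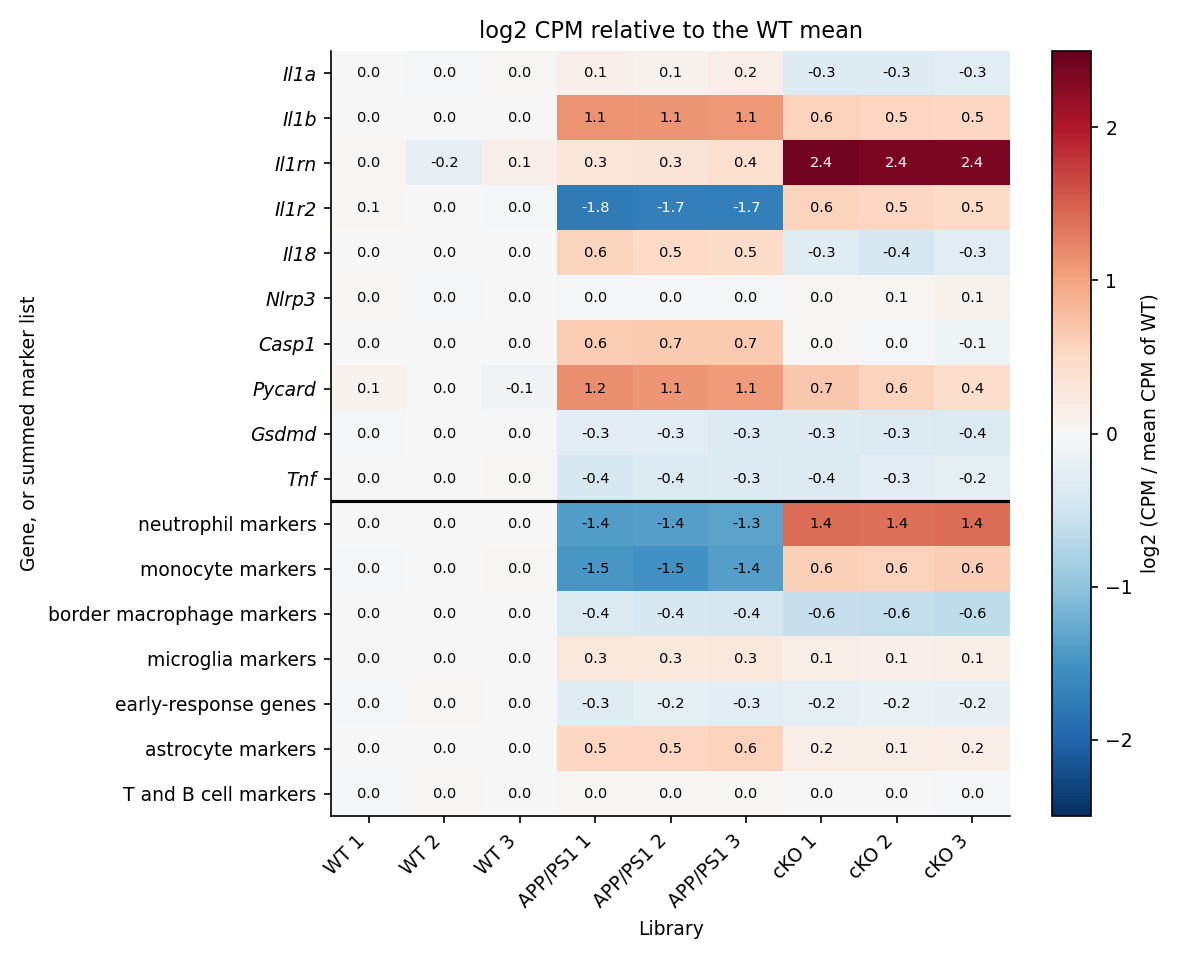
Heat map of log2 CPM relative to the mean of the WT libraries, with a column per library. The 10 genes are above the line and the summed levels of 7 marker lists below it. Il1r2 is low in APP/PS1 and high in cKO, as are the neutrophil and monocyte sums, whereas Il1b, Pycard and Casp1 are high in APP/PS1.

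Of the inflammasome genes among the 10, the adaptor Pycard showed the largest difference. It was at 36.35, 33.65 and 32.27 CPM in the WT libraries, 75.93, 73.51 and 71.40 CPM in APP/PS1 and 54.46, 49.74 and 45.86 CPM in cKO, and the groups did not overlap. APP/PS1 had 2.16-fold more Pycard than WT (log2 change 1.11, SE 0.0557, edgeR adjusted p 6.01e-15). On TPM this change was 0.70 (limma adjusted p 1.01e-06), under 2-fold. The offsets took 3800 nt as the transcript length of Pycard, which is more than its gene spans (127991373 to 127993867). They may thus not correct Pycard for its length. Pycard was lower in cKO than in APP/PS1 with a log2 change of -0.56 (SE 0.0532, edgeR adjusted p 2.2e-09) and higher than WT, with a change of 0.55 (SE 0.0582, edgeR adjusted p 1.69e-08). Casp1, which encodes the protease that matures interleukin-1 beta and interleukin-18, was at 39.64, 39.07 and 38.69 CPM in the WT libraries, 60.79, 61.30 and 61.59 CPM in APP/PS1 and 39.95, 37.92 and 36.48 CPM in cKO. Only APP/PS1 stood apart, since the WT and cKO libraries overlapped. APP/PS1 had 1.56-fold more Casp1 than WT (log2 change 0.65, SE 0.045, edgeR adjusted p 1.85e-12), and cKO had 1.61-fold less than APP/PS1 (-0.68, SE 0.0456, edgeR adjusted p 8.9e-13). With the offsets these changes of Casp1 were 0.29 and -0.36, and the first was 0.25 on TPM. Between cKO and WT it was -0.0382 (95% interval -0.14 to 0.0603, edgeR adjusted p 0.541). There Casp1 passed as lower on TPM (-0.23, limma adjusted p 0.000286) and also with library totals (-0.15, edgeR adjusted p 0.0122).

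The sensor Nlrp3 varied least. It was at 866.5 to 894.6 CPM in the WT libraries, 849.7 to 864.2 CPM in APP/PS1 and 906.0 to 928.1 CPM in cKO, which left narrow gaps between the groups. The log2 change was 0.0925 in cKO against APP/PS1 (SE 0.0259, edgeR adjusted p 0.0037), and 0.00282 with offsets for GC content and length (edgeR adjusted p 0.926). It was -0.0327 in APP/PS1 against WT (95% interval -0.086 to 0.0206, edgeR adjusted p 0.289) and 0.0598 in cKO against WT (95% interval 0.00651 to 0.11, edgeR adjusted p 0.0597). Both of these changed sign with the scaling. On TPM they were -0.42 (limma adjusted p 3.79e-08) and -0.14 (limma adjusted p 0.000629), while with the offsets they were 0.0838 (edgeR adjusted p 0.00135) and 0.0866 (edgeR adjusted p 0.0011). The change in cKO against WT passed as higher with DESeq2 size factors (0.0845, edgeR adjusted p 0.00806) and in the DESeq2 Wald test (0.0845, DESeq2 adjusted p 0.00529). It also passed with limma-voom (0.0599, limma adjusted p 0.0366). Without WT library 1 the change in cKO against WT was 0.0724 (edgeR adjusted p 0.0475).

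Gsdmd, which encodes the pore-forming substrate of inflammatory caspases, was at 93.41, 95.87 and 96.29 CPM in the WT libraries, 78.00, 79.22 and 75.38 CPM in APP/PS1 and 76.45, 75.37 and 73.94 CPM in cKO. WT was the highest group, and the other groups overlapped. Gsdmd was lower than in WT with a log2 change of -0.30 in APP/PS1 (SE 0.0374, edgeR adjusted p 1.55e-07) and with a log2 change of -0.34 in cKO (SE 0.0374, edgeR adjusted p 2.33e-08). On TPM these were -0.68 and -0.53. Between cKO and APP/PS1 it was -0.0431 (95% interval -0.12 to 0.0362, edgeR adjusted p 0.36), whereas TPM gave 0.15 (limma adjusted p 0.00167). Gsdmd thus fell in APP/PS1, where Pycard and Casp1 rose. The 7 markers of border macrophages summed to 538.7 to 550.7 CPM in the WT libraries, 406.7 to 421.1 in APP/PS1 and 348.8 to 366.3 in cKO. Of them 4 were lower and 2 higher in APP/PS1 than in WT, beside 32% and 26.9% of all tested genes. All 7 were lower in cKO than in WT, beside 23% of all tested genes. Their part in the decrease of Gsdmd was not tested.

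Tnf, which encodes tumor necrosis factor, also ran against Il1b. It was at 2225, 2244 and 2296 CPM in the WT libraries, 1712, 1750.4 and 1805 CPM in APP/PS1 and 1755, 1853 and 1899.6 CPM in cKO. All WT libraries were above all others, and the APP/PS1 and cKO libraries overlapped. Tnf was lower than in WT with a log2 change of -0.36 in APP/PS1 (SE 0.0291, edgeR adjusted p 3.6e-11) and with a log2 change of -0.30 in cKO (SE 0.0291, edgeR adjusted p 2.63e-09). Between cKO and APP/PS1 it was 0.0641 (95% interval 0.00424 to 0.12, edgeR adjusted p 0.0648). This call turned on the processing: Tnf passed under 9 of 13 other choices, among them TPM (0.26, limma adjusted p 2.41e-05), library totals (0.094, edgeR adjusted p 0.00649) and the offsets (0.19, edgeR adjusted p 4.1e-07). It also passed without APP/PS1 library 3 (0.0826, edgeR adjusted p 0.0393) or without cKO library 1 (0.1, edgeR adjusted p 0.00692). Against WT the decrease in APP/PS1 was -0.54 with the offsets and -0.75 on TPM, and that in cKO -0.50 on TPM. Early-response genes such as Fos, Jun and Egr1 are known to rise when cells are isolated. Of 21 such genes 19 were called lower in APP/PS1 than in WT, as Tnf was, beside 32% of all tested genes. Egr2 was at 0.11 (edgeR adjusted p 0.0542). Between cKO and APP/PS1, 9 were higher and 2 were lower, beside 27.3% and 27.7% of all tested genes. The other 10 did not pass, among them Jun at -0.00458 and Egr1 at -0.0567. Between cKO and WT, 2 were higher and 13 lower, beside 24.7% and 23% of all tested genes. Their sum was 25402 to 26789 CPM in the WT libraries, 21062 to 22155 CPM in APP/PS1 and 21978 to 23166 CPM in cKO. Per 1000 CPM of that sum, Tnf was at 86.6 ± 2.49 in the WT libraries, 81.3 ± 2.22 in APP/PS1 and 81.3 ± 2.45 in cKO (SD, n = 3). The range of WT (83.78 to 88.46) overlapped that of cKO (79.85 to 84.16) and lay just above that of APP/PS1 (79 to 83.45). The part of the isolation response in the decrease of Tnf was not tested.

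**Figure D3:**
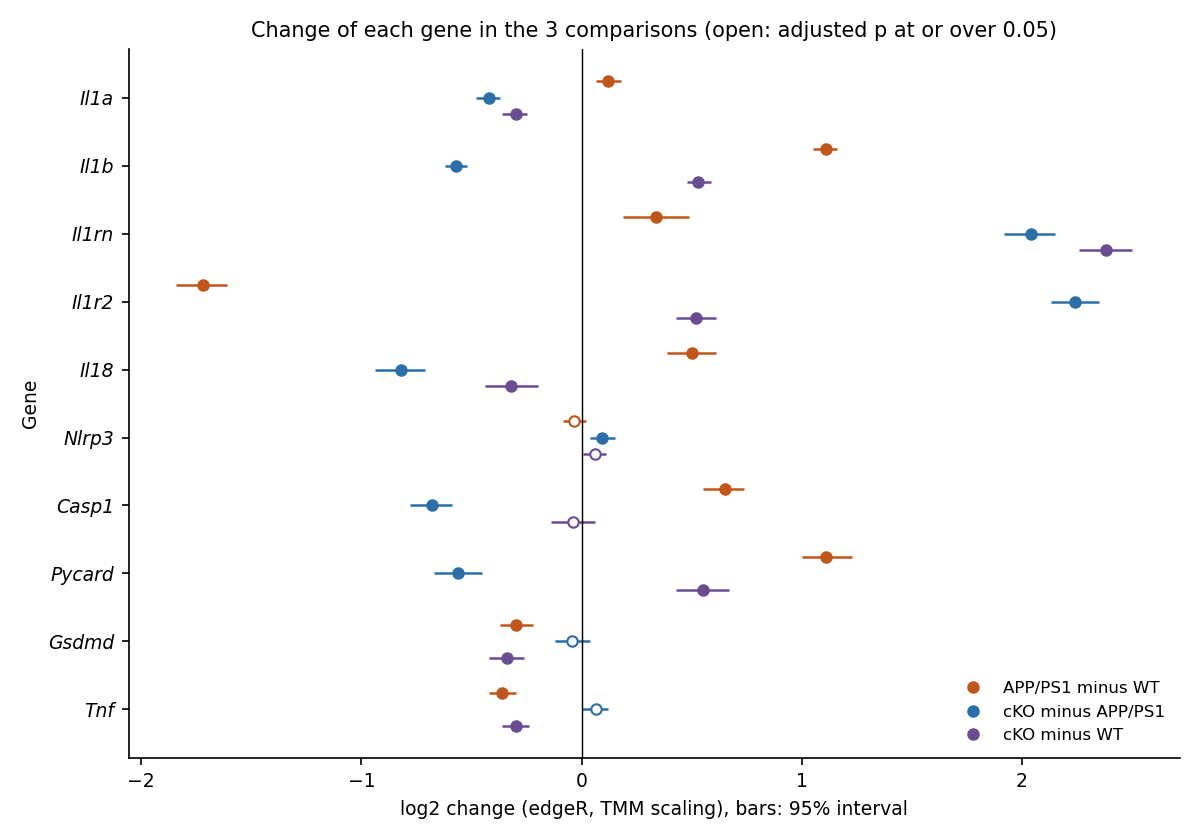
log2 change of each gene in the comparisons of APP/PS1 with WT, cKO with APP/PS1 and cKO with WT. Points are edgeR estimates, bars their 95% intervals, and open points did not pass an adjusted p of 0.05. Il1r2 lies at -1.72 and 2.24 in the first 2 comparisons and Il1rn at 2.04 and 2.38 in the comparisons with cKO.

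For each single gene the exact permutation test of the group means gave its smallest possible p of 0.1 wherever the 3 libraries of a group did not overlap with the other 3, so the calls above rest on the fit across all genes. The biological coefficient of variation of that fit was 3.14%.

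Ratios of counts within a library do not depend on its scaling and show how these transcripts stood to each other. For every 100 counts of Il1b there were 1.69, 1.46 and 1.84 counts of Il1rn in the WT libraries, 0.932, 0.97 and 1.04 in APP/PS1 and 6.02, 5.92 and 5.95 in cKO. Il1rn per Il1b was thus highest in cKO and lowest in APP/PS1, without overlap. For every 100 counts of Tnf there were 41.4 ± 1.04 counts of Il1b in the WT libraries, 114.4 ± 4.59 in APP/PS1 and 73.7 ± 4.48 in cKO (SD, n = 3). For every 100 counts of Il1a there were 17.9 ± 0.463 counts of Il1b in the WT libraries, 35.5 ± 1.18 in APP/PS1 and 32.04 ± 1.23 in cKO (SD, n = 3), so Il1b was highest in APP/PS1 against both other cytokines. Il1a per 100 counts of Tnf was 230.8 ± 2.7 in the WT libraries, 322.6 ± 6.94 in APP/PS1 and 230.0 ± 7.67 in cKO (SD, n = 3). WT and cKO overlapped in that ratio. These ratios are given with no test.

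The other genes of the pathways were taken from 5 lists. In APP/PS1 against WT, where 32% of all tested genes were called lower and 26.9% higher, more of them were called lower than higher in each list. Lower at an edgeR adjusted p under 0.05 were 13 of 17 tested genes of the TNF receptor and signalling list (the other 4 did not pass), 12 of 14 of the MyD88 and IRAK list (1 higher), 14 of 20 of the NF-kB list (2 higher), 14 of 22 other inflammasome genes (5 higher) and 6 of 11 genes of the IL-1 family receptors and other ligands (2 higher). The list medians were -0.24, -0.24, -0.22, -0.18 and -0.27 on the log2 scale, beside -0.0359 over all tested genes. On TPM, which moved the median of all genes to -0.349, the counts of lower genes were 17, 14, 20, 20 and 7, and those of higher genes fell to 1 in the inflammasome list, 0 in the NF-kB list and 0 in the MyD88 list. With library totals 2 inflammasome genes and 0 NF-kB genes were higher. When cKO was set against APP/PS1 (27.3% of all tested genes higher and 27.7% lower), 8 genes of the TNF list were higher and 9 did not pass. The other lists, in the same order, had 8 genes higher and 1 lower, 8 and 3, 11 and 5, and 6 and 1. On TPM the counts higher were 12, 13, 19, 13 and 6, and the lower counts of the NF-kB and inflammasome lists were 1 each. With library totals 2 inflammasome genes were lower. The NF-kB list had 1 lower without cKO library 2, and 2 lower without each of the other libraries. All 14 neutrophil and all 8 monocyte markers were lower in the first comparison and higher in the second, and their part in the list counts was not tested. The inflammasome list had 7 higher without cKO library 3, and 2 or 3 lower without APP/PS1 library 1 or 3 or cKO library 1 or 2. Set against WT (24.7% higher and 23% lower), cKO had 3 genes higher and 4 lower in the TNF list, and then 2 and 7, 5 and 10, 6 and 9, and 6 and 2. The counts of the TNF list there, out of 17, lie near those shares. So do the higher counts of the NF-kB list (out of 20) and the inflammasome list (out of 22). The lower count of the IL-1 family list (out of 11) is near its share as well. On TPM 10, 12, 16, 14 and 3 genes were lower there, and 0, 2, 1, 4 and 5 higher. Without cKO library 3 the NF-kB list had 3 higher, and without WT library 2 or cKO library 1 or 2 the IL-1 family list had 1 lower.

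**Figure D4:**
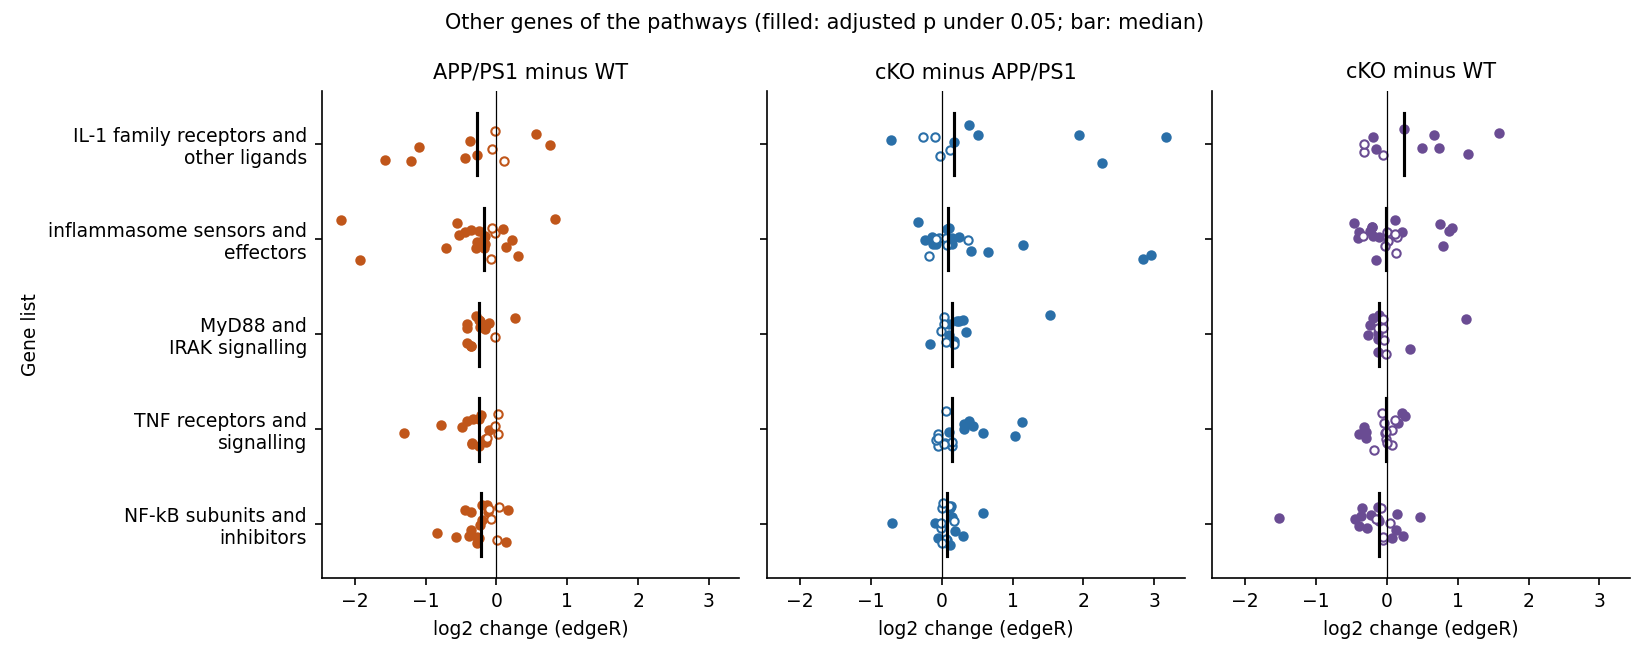
log2 change of the tested genes of the 5 pathway lists in each comparison, with a point per gene. Filled points had an edgeR adjusted p under 0.05, and the vertical bar is the median of the list. The medians lie between -0.27 and -0.18 in APP/PS1 against WT.

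Changes of the following genes are log2 changes. Among the IL-1 family, Il1f9, the older symbol of the ligand interleukin-36 gamma, was lower in APP/PS1 than in WT (6.08 CPM ± 0.44 against 18.2 CPM ± 1.09, SD, n = 3, log2 change -1.58, edgeR adjusted p 1.29e-14) and higher in cKO than in APP/PS1 (54.5 CPM ± 3.02, log2 change 3.16, edgeR adjusted p 7.13e-23). Il18rap, a subunit of the interleukin-18 receptor, was also higher in cKO than in APP/PS1 (36.8 CPM ± 3.33 against 7.70 CPM ± 0.661, log2 change 2.26, edgeR adjusted p 8.99e-19). Il18r1, the other subunit, was lower in APP/PS1 than in WT with a log2 change of -1.21 (edgeR adjusted p 9.87e-09). The mean levels of Il1f9, Il18rap and Il18r1 had the same order of groups as the neutrophil sum (APP/PS1, WT, cKO), and the part of neutrophils in their changes was not tested. Il18bp, which encodes a secreted inhibitor of interleukin-18, rose in APP/PS1 over WT by 0.76 (edgeR adjusted p 6.09e-07). Il33, an alarmin of the family, rose by 0.56 in APP/PS1 over WT (edgeR adjusted p 8.26e-09) and was lower with a log2 change of -0.72 in cKO compared with APP/PS1 (edgeR adjusted p 1.42e-10). On TPM the rise of Il18bp was 0.30 (limma adjusted p 0.0113) and that of Il33 was 0.16 (limma adjusted p 0.04). Il33 is known from astrocytes and oligodendrocytes, and the sum of 10 astrocyte markers was 456.6 to 465.5 CPM in the WT libraries, 665.2 to 683.9 CPM in APP/PS1 and 509 to 518.9 CPM in cKO. The part of other brain cells in the change of Il33 was not tested.

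The receptors that the cytokines act on were named here after their values were seen. Il1r1, the signalling receptor of interleukin-1, was at 10.95 CPM ± 0.613 in the WT libraries, 11.8 CPM ± 0.328 in APP/PS1 and 15.3 CPM ± 0.209 in cKO (SD, n = 3), and its co-receptor Il1rap at 27.1, 22.5 and 32.04 CPM. From APP/PS1 to cKO the log2 change was 0.38 for Il1r1 (edgeR adjusted p 9.55e-05) and 0.51 for Il1rap (edgeR adjusted p 3.33e-08). The receptors of tumor necrosis factor were at 187.6, 159.3 and 197.2 CPM for Tnfrsf1a and 278.4, 239 and 325.4 CPM for Tnfrsf1b in the same order of groups. They were higher in cKO than in APP/PS1 by 0.31 (edgeR adjusted p 1.28e-07) and 0.44 (edgeR adjusted p 7.71e-13). Il1rap, Tnfrsf1a and Tnfrsf1b had the group order of the neutrophil and monocyte sums, and the part of those cells was not tested.

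Among other inflammasome genes, Mefv, which encodes the sensor pyrin, was lower in APP/PS1 than in WT (2.91 CPM ± 0.384 against 13.4 CPM ± 0.861, log2 change -2.20, edgeR adjusted p 1.39e-15) and higher in cKO than in APP/PS1 (22.4 CPM ± 1.16, log2 change 2.95, edgeR adjusted p 4.45e-19). Nlrp12, a further member of the NLR family, did the same at a low level (-1.93 and 2.84, edgeR adjusted p 6.97e-06 and 2.37e-09). Mefv and Nlrp12 are known from neutrophils, whose marker sum had the same order of groups, and the part of neutrophils in their changes was not tested. Nlrc3, an NLR protein known as a negative regulator, rose in APP/PS1 over WT by 0.82 (edgeR adjusted p 6.66e-07), and Panx1, a channel of the connexin-related pannexins, rose by 0.31 (edgeR adjusted p 0.00742), which on TPM was -0.0805 (limma adjusted p 0.305). Compared with APP/PS1, in cKO Casp4 (known as caspase-11, the sensor of cytosolic lipopolysaccharide) was lower with a log2 change of -0.33 (edgeR adjusted p 5.91e-09) and Ninj1, which ruptures the membrane after pore formation, with a log2 change of -0.23 (edgeR adjusted p 4.31e-05). Txnip was lower than in WT in both other groups, at -0.56 in APP/PS1 (edgeR adjusted p 8.39e-16) and -0.47 in cKO (edgeR adjusted p 5.39e-14). Nlrp1b was likewise at -0.28 (edgeR adjusted p 6.23e-05) and -0.41 (edgeR adjusted p 3.92e-07).

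In the signalling lists, Irak3, which encodes a kinase-like inhibitor of IRAK signalling, was at 13.8 CPM ± 1.06 in the WT libraries, 10.3 CPM ± 0.263 in APP/PS1 and 29.8 CPM ± 0.289 in cKO (SD, n = 3). Its log2 change was 1.53 in cKO against APP/PS1 (edgeR adjusted p 1.75e-16) and 1.11 against WT (edgeR adjusted p 5.37e-14). Tnfaip3, which encodes the ubiquitin-editing inhibitor A20, was lower in cKO than in WT with a log2 change of -0.45 (2748 CPM ± 11.8 against 3741.5 CPM ± 33.4, edgeR adjusted p 9.96e-15). It was at -0.39 in APP/PS1 against WT (edgeR adjusted p 9.3e-14) and at -0.0553 in cKO against APP/PS1 (edgeR adjusted p 0.0495). Tnip1, an A20-binding inhibitor, was higher in cKO than in APP/PS1 by 0.59 (edgeR adjusted p 7.01e-10), and Tnip3, another of that family, was lower with a log2 change of -0.70 (edgeR adjusted p 0.000212). Traf1, an adaptor of TNF receptors, was lower in APP/PS1 than in WT with a log2 change of -0.78 (edgeR adjusted p 2.32e-07) and higher in cKO than in APP/PS1 by 1.04 (edgeR adjusted p 1.34e-09). Irak3, Traf1 and Tnip1 had the group order of the neutrophil and monocyte sums, whose part in these changes was not tested. Mlkl, the effector of necroptosis, had changes of -1.31 and 1.13 in the same comparisons (edgeR adjusted p 1.1e-06 and 1.61e-05). Myd88 itself was lower than in WT in both other groups, at -0.29 in APP/PS1 (edgeR adjusted p 4.59e-08) and -0.26 in cKO (edgeR adjusted p 4.28e-07), and between them it was 0.0295 (edgeR adjusted p 0.488).

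The genes most like each of the 4 genes that changed at least 2-fold were found by the root mean square difference of log2 CPM, centred on each gene's mean, over the 9 libraries. For Il1b they were Aga (0.0485), Sec11c (0.05) and Psma1 (0.0526), and for Pycard they were Sec11c (0.0572), Il1b (0.0583) and Gng5 (0.0604). Il1b was thus among the 3 genes most like Pycard. The tenth of genes with the shortest transcripts moved in the same directions, with medians of 0.522 in APP/PS1 against WT and -0.47 in cKO against APP/PS1. The part of transcript length in this likeness was not tested. For Il1r2 they were Sgms2 (0.0886), E2f2 (0.0916) and Kif18b (0.0973). Il1rn had no gene as close, and the first were Areg (0.2), Trpm6 (0.238) and Esr1 (0.287).

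**Figure D5:**
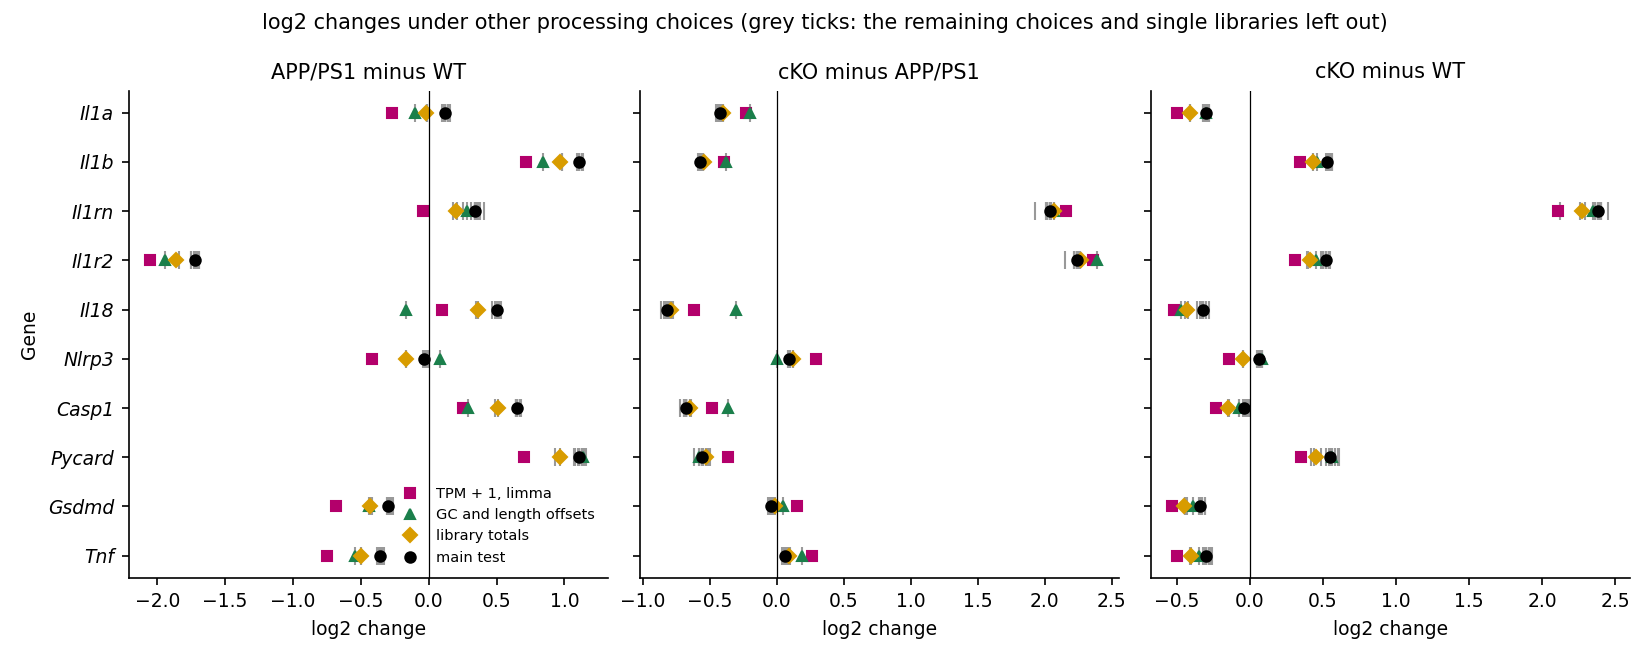
log2 change of each gene in each comparison under the main test (black) and under other processing choices. The colored marks are TPM, the offsets for GC content and transcript length, and library totals, and grey ticks are the rest. In APP/PS1 against WT, Il18 and Il1a have marks on both sides of 0, whereas Il1b and Pycard lie above and Il1r2, Tnf and Gsdmd below 0 under all of them.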

How the data were processed

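Per the labels, poly-A RNA was read from a single end over 50 bases (DNBSEQ). HISAT, Bowtie2, DESeq2 and the build GRCm38.p6 are named in the submitters' processing notes, without roles or versions, and the annotation and strand setting are not given in the sources used here. Per the file headers, each library has 4 deposited values per gene. They are an estimated count, with decimals, then TPM, FPKM and a normalised value. The deposited estimated counts were rounded, whereas the planned design had assumed plain counts. The deposited normalised counts are a signal, the rounded-up count times a single factor per library, and were not used, nor were the authors' group means. Libraries were grouped by genotype labels, 3 per group.

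The main test was edgeR 4.0.16 (R 4.3.3, quasi-likelihood, TMM, filterByExpr, robust), with all 9 libraries in a single fit and Benjamini-Hochberg adjustment over 14696 genes at 0.05. CPM uses TMM-scaled library sizes. The members and gene lists were chosen with earlier results of these data known. Pathway genes were named by rule, at most 2 called higher and 2 called lower per list and comparison, at a mean level of 1 CPM or more, and some of these are left undescribed. Likeness used log2 CPM with a prior count of 2. Il36a, Il36b and Il36g were matched to the older symbols Il1f6, Il1f8 and Il1f9, and 14 of 16 genes of that list were matched. Alternatives were DESeq2 size factors, library totals, the DESeq2 1.42.0 Wald test, limma-voom (limma 3.58.1), other count filters, 2 groups per fit, the replicate number as a block, limma-trend on the deposited FPKM or TPM with pseudocounts of 1 or 0.1, and offsets for GC content and length (10 bins each) from GENCODE transcripts (17906 genes). Promoters came from RefSeq GRCm38.p6. Steps were tested on simulated data.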

Additional observations from a re-analysis of the deposited data

How the results depend on the processing

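Of 660 values for the 10 genes under other choices, 611 kept their direction and side of the threshold, 27 passed newly, 3 no longer passed and 19 changed sign. Leaving out single libraries gave 6 genes higher and 3 lower in APP/PS1 against WT, 3 to 4 and 5 in cKO against APP/PS1, and 4 to 5 and 4 in cKO against WT. On TPM the first comparison gave 3 higher and 5 lower, and the second 5 higher. With GC and length offsets the first gave 5 lower, with the replicate block as well. Requiring a 2-fold change left 2 higher and 1 lower in the first, 0 lower in the second, and 1 higher and 0 lower in the third. The causes were not tested.

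Sign changes in APP/PS1 against WT were, for Il1a, -0.0161 with library totals, -0.0127 on FPKM with either pseudocount, -0.27 on TPM and -0.1 with offsets. For Il18 the value was -0.17 with offsets, with or without the block. For Nlrp3 it was 0.00263 with only these groups in the fit and 0.0838 with offsets (0.0839 with the block). On TPM it was -0.0443 for Il1rn, -0.14 for Gja1, -0.0805 for Panx1, -0.16 for Peli2 and -0.22 for Rel. Nfkbiz was at -0.00223 with library totals, -0.00184 and -0.00185 on FPKM and -0.26 on TPM. For cKO against APP/PS1, Gsdmd was at 0.15 on TPM and 0.0464 with offsets (0.0463 with the block), Rel at 0.1 and Tifa at 0.0379 on TPM. For cKO against WT, Nlrp3 was at -0.0481 with library totals, -0.0472 and -0.0474 on FPKM and -0.14 on TPM. Library totals moved the median of all genes to -0.173 in APP/PS1 against WT.

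Libraries with the same replicate number deviated together from their group means with correlations of 0.0535 to 0.29 over 9 pairs (mean 0.192). Not every pair exceeded 0.1, and 8 of 9 libraries correlated best with both other libraries of their number, which is a hint from the data only. With the number as a block the biological coefficient of variation was 0.988% instead of 3.14%, and 6 genes were higher and 4 lower in APP/PS1 against WT, 4 and 5 in cKO against APP/PS1, and 5 and 4 in cKO against WT. Nlrp3 then passed in APP/PS1 against WT (-0.0326, edgeR adjusted p 0.02) and in cKO against WT (0.0598, edgeR adjusted p 6.64e-05), and Tnf passed in cKO against APP/PS1 (0.0639, edgeR adjusted p 0.0493).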
